A study of Mus musculus with 12 samples.

Results

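Chemokine ligands made by myeloid cells and the receptors through which such cells follow chemokines were compared across 3 murine acute myeloid leukaemia lines. The set was given as a list of gene names, chosen with earlier results of these data known. It comprised 5 ligand genes (Ccl2, Ccl3, Ccl4, Ccl6 and Ccl9) and 5 receptor genes (Ccr1, Ccr2, Cxcr2, Cxcr4 and Cx3cr1). Every probe set annotated to 1 of these genes alone was taken, which gave 15 probe sets for 9 of the 10 genes, out of 28898 probe sets with a single gene on the array. Cxcr4 had no probe set named in the annotation used here and was not analysed here.

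The 12 samples were total RNA of cells grown in 10% serum with 5 ng/ml interleukin-3 and no further treatment. All were labelled as expressing Trib1, a pseudokinase that promotes breakdown of the myeloid factor C/EBPalpha. The line called Trib1 carried this gene alone, while TB13 and TB14 carried Trib1 and Bcl11a, which encodes a zinc finger repressor, and each line had 4 arrays. The series asks whether Bcl11a acts against PU.1, a transcription factor of myeloid cells. How the genes were introduced, which promoter drove them and whether a line was 1 clone was not given in the sources used here, and nothing said that the 4 arrays of a line were separate cultures. The p-values below therefore measured only the spread from array to array, possibly a technical one, and with 1 control line they held no spread between control lines. The 4 probe sets of Bcl11a read 7.65 to 21.5 in Trib1, 7.69 to 17.3 in TB13 and 6.70 to 15.7 in TB14, all too dim to be tested. Whether they cover the introduced sequence is not known, so they do not check the labels.

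Chemokines are small secreted proteins that bind receptors coupled to inhibitory G proteins and steer the migration of leukocytes along their gradient. Ccl3 and Ccl4 are closely related inflammatory ligands, of which Ccl3 is known to act through Ccr1 among other receptors. Ccl6 and Ccl9 are rodent ligands made constitutively by many myeloid cells and known to act through Ccr1. Ccl2 draws inflammatory monocytes through Ccr2, the receptor that these cells need to leave the bone marrow, while Cxcr2 guides neutrophils and Cx3cr1 marks patrolling monocytes and tissue macrophages.

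In the RefSeq assembly GRCm38.p6, 4 of the ligand genes are consecutive protein-coding genes on chromosome 11, in the order Ccl9, Ccl6, Ccl3 and Ccl4, with Ccl5 next to Ccl9. Ccr1, Ccr2 and Cx3cr1 lie on chromosome 9, and Cxcr2 on chromosome 1. RefSeq promoter entries were found for 8 of the 10 genes. The 250 bases before the start are given for the 3 ligand genes that had an entry, Ccl9, which stayed level, Ccl6 and Ccl3. All 3 lie on the minus strand and are written 5′ to 3′ (chr11:83578637-83578886 for Ccl9, chr11:83593088-83593337 for Ccl6 and chr11:83649379-83649628 for Ccl3). Capitals mark matches, on either strand, to 1 of 3 patterns. They include GAGGAA, a core bound by PU.1 and other ETS factors, and TGACCA, a motif known to be bound by BCL11A. The other is TGANTCA, a loose form of the AP-1 site in which N is any base. No match to one pattern overlapped a match to another in these windows.
Ccl9: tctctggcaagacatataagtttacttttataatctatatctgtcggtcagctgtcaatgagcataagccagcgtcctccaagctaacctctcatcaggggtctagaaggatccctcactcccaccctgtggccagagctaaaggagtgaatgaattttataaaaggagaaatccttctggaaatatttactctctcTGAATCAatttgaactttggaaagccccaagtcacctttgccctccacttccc
Ccl6: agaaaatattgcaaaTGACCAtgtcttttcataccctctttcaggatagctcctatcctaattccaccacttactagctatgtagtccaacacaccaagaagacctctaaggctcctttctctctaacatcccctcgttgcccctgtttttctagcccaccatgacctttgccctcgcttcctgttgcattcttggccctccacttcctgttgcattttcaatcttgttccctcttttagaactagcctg
Ccl3: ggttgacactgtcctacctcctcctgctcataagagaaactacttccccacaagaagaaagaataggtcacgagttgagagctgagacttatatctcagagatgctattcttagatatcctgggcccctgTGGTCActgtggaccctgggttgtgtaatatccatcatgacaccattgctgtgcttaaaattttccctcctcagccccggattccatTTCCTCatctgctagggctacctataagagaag
The Ccl3 window held GAGGAA from base 33 to base 28 before the start and TGACCA from base 120 to base 115, both on the opposite strand. The Ccl6 window held TGACCA from base 235 to base 230, and the Ccl9 window held TGANTCA, in the form TGAATCA, from base 53 to base 47. Of 32841 promoter windows of this length, 23.3% held GAGGAA, 6.75% TGANTCA and 11.4% TGACCA. The Ccr1 window held both GAGGAA and TGACCA, that of Cxcr2 held GAGGAA alone, and those of Ccr2, Cxcr4 and Cx3cr1 held none of the 3. A match is a description of these letters and was not tested as a binding site.

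Values were deposited as linear intensities, and probe sets are compared only with themselves across lines, since probe sets differ in brightness for the same amount of RNA. A probe set was tested if its value lay above the median of its array on 4 or more of the 12 arrays, and 17475 with a single gene did so. Among them were 12 of the 15 member probe sets, from 7 genes. The tests used limma on log2(intensity + 12.7) with Benjamini-Hochberg adjustment over all 17475 probe sets, and a probe set was called at an adjusted p under 0.05. A fold change on this scale understates the change of dim probe sets.

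The TB13 arrays differed from the other 8 in ways that do not depend on these genes, and this bears on each TB13 value below. Their 18 hybridization controls, control transcripts added to each sample, differed from the Trib1 arrays by a median of -0.93 on the log2 scale, and 17 of them were lower, while those of TB14 had a median of 0.0010. Array medians were 25.5 to 25.9 in TB13 and 20.8 to 21.4 in the other lines, and upper quartiles 71.8 to 72.5 against 102 to 109. The median log2 change over all probe sets tested was -0.39 in TB13 as deposited, -0.030 after quantile scaling and 0.56 after calibration on the hybridization controls, and 0.0084 in TB14 as deposited. Member changes in TB13 are given on the deposited and the quantile-scaled values. So are the log2 changes printed for other genes where the 2 differed by over 1.5 times. Means and sums of other genes are as deposited. The part of hybridization in all these TB13 values cannot be told apart from the line.

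The labelled cell type was checked first. All 9 markers of leukocytes and myeloid progenitors, among them Ptprc, Kit, Cd34, Mpo and Spi1, had means above the array median in every line. Passing that median does not tell cell types apart. In Trib1, 4 of 6 T cell, 2 of 4 B cell and 3 of 5 mast cell and basophil markers also did. Markers of mature monocytes and macrophages did not all move together. Of the 4 tested, 3 were called lower and 1, Ms4a6c, higher in each Bcl11a line, as deposited and after quantile scaling. The shares over all probe sets stand at the end of this paragraph. The summed deposited intensity of the 4 of 6 such markers with a named probe set was 1223 to 1298 in Trib1, 476 to 551 in TB13 and 631 to 659 in TB14. The size of the TB13 fall rested on the scaling. The median log2 change of the 4 in TB13 was -1.09 as deposited and -0.56 after quantile scaling, and in TB14 it was -0.89 as deposited. Adgre1, the brightest, had deposited means of 735 in Trib1 and 362 in TB13, and changed by -0.34 in TB13 after quantile scaling. Csf1r changed there by -1.17 as deposited and -0.77 after quantile scaling. None of the 4 was at 0. The coagulation factor gene F13a1 had means of 335, 21.6 and 16.4 in the order Trib1, TB13 and TB14, while Ms4a6c had 38.1, 65.4 and 57.9. In whole-culture RNA a smaller share of more mature cells and less RNA per cell cannot be told apart, and the part of these markers in the chemokine results was not tested. Mature neutrophil markers summed to 314 to 320 in Trib1, 444 to 470 in TB13 and 571 to 609 in TB14, but did not move together. Of the 5 genes, 1 was called higher and 1 lower in TB13 as deposited, 2 and 2 after quantile scaling, and 3 and 2 in TB14. Over all probe sets tested, 26% were higher and 64.4% lower in TB13 as deposited, and 37% and 43.1% after quantile scaling. In TB14 the shares were 29.6% and 20%. Mmp8 had means of 93.1, 270 and 215 in the order Trib1, TB13 and TB14, and Ltf of 118, 65.9 and 101. The log2 change of Ltf in TB13 was -0.75 as deposited and -0.34 after quantile scaling.

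**Figure D1:**
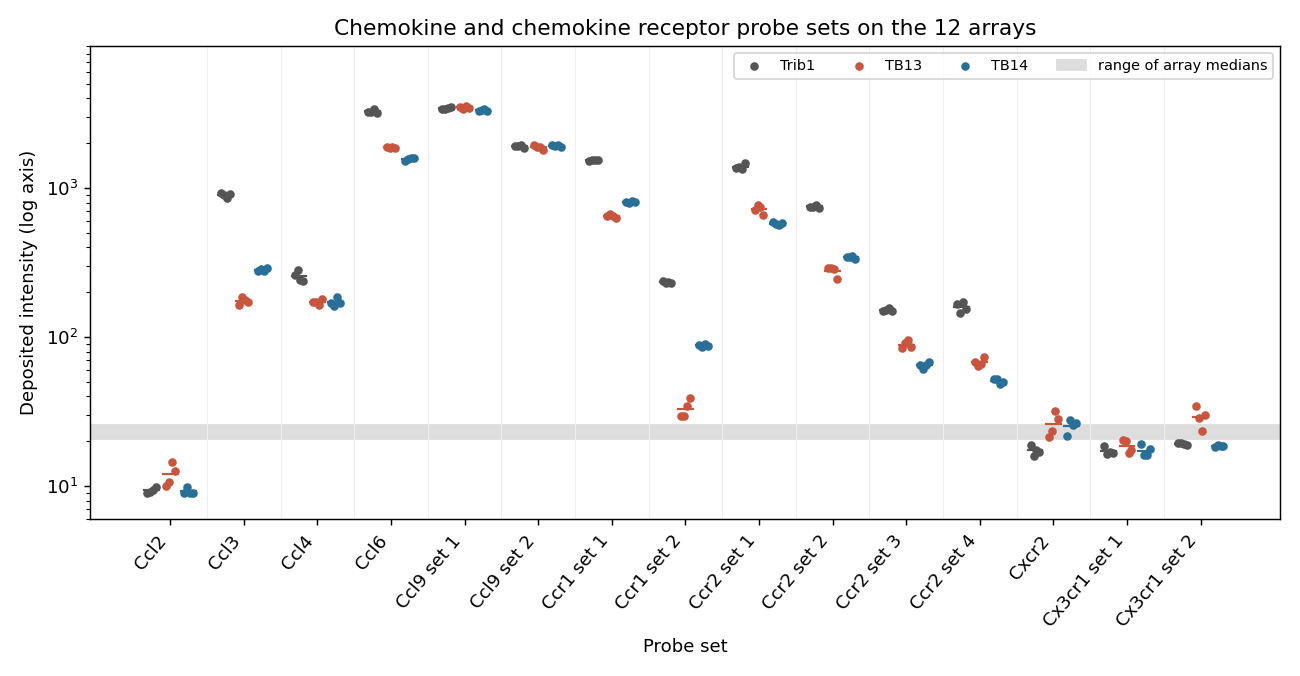
Deposited intensity (vertical log axis) of each of the 15 member probe sets on the 12 arrays, with 1 point per array, a short line at each line's mean (n = 4), and a grey band from the lowest to the highest array median (20.8 to 25.9), where probe sets of 1 gene are numbered in the order of their IDs. Ccl3, Ccl6, Ccr1 and Ccr2 lie lower in both Bcl11a lines, the 2 Ccl9 probe sets lie level, and Ccl2, Cxcr2 and Cx3cr1 lie near or below the band.

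Chemokine and receptor genes fell together in TB14 against Trib1. Ccl3, Ccl6, Ccr1 and Ccr2 were lower by about a log2 unit or more, Ccl4 was lower by a smaller amount, Ccl9 hardly moved and Cxcr2, which was dim, was higher. Of the 12 member probe sets tested, 10 from 6 genes were called lower and 1 was called higher, while 20% of all probe sets tested were called lower and 29.6% higher. The 10 include a Ccl9 probe set whose change of -0.038 was a call close to the threshold. The higher one was Cxcr2, which passed the filter only through the Bcl11a lines. By 2-fold or more 7 probe sets from 4 genes were lower, against 1.51% of all probe sets. The median log2 change of the 12 was -1.07, against 0.0084 over all probe sets tested. Probe sets of 1 gene report the same transcript and are not separate evidence. With the 4 TB13 arrays left out of the fit, an alternative added after the data were seen, the counts were again 10 lower and 1 higher.

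In TB13 against Trib1 the same 4 genes were lower, but how many others followed rested on the scaling. As deposited, 9 of the 12 probe sets from 5 genes were called lower and 1 higher, against 64.4% of all probe sets lower and 26% higher, a share of falls not far above the background. By 2-fold or more 5 probe sets from 3 genes were lower, against 15.3% of all. After quantile scaling 7 were lower and 4 higher, against 43.1% and 37% of all probe sets, and the median of the 12 went from -0.87 to -0.56. Over both Bcl11a lines against Trib1, weighted equally, 9 were lower and 1 higher, against 55.1% and 25.9%, and 6 were lower by 2-fold or more, against 2.57%. That contrast shares the Trib1 arrays with the other 2 and held only the spread between arrays. With each line's mean as 1 sample limma called none of the 12, and 2 had an unadjusted p under 0.05, both lower.

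**Figure D2:**
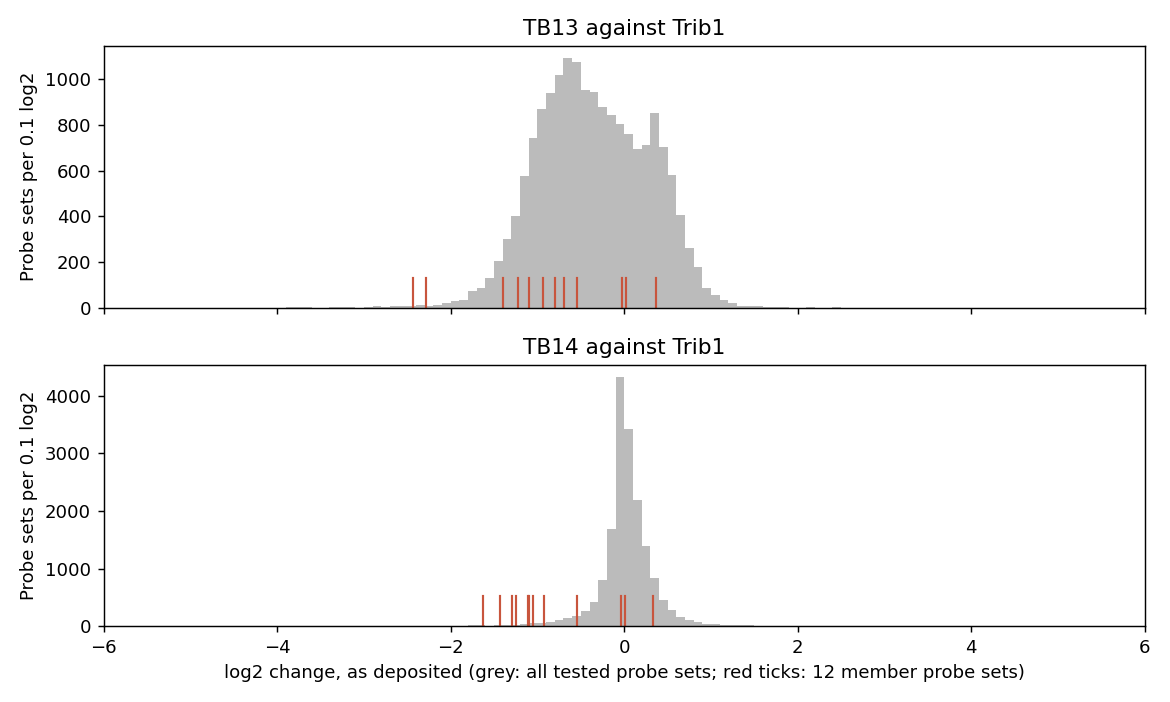
Histogram of the log2 change, as deposited, of all 17475 probe sets tested (grey, horizontal axis in log2 units, vertical axis in probe sets per 0.1 log2), with red ticks at the 12 member probe sets, for TB13 (top) and TB14 (bottom) against Trib1. In TB14 most ticks lie left of a narrow peak near 0, with a median of -1.07, while in TB13 the whole histogram lies to the left, with a median of -0.39.

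Among the ligands, Ccl3 had the largest fall. Its probe set (1419561_PM_at) read 925, 906, 861 and 916 on the 4 Trib1 arrays, 164, 185, 179 and 172 in TB13 and 277, 287, 278 and 289.7 in TB14. The arrays of the 3 lines did not overlap, and both Bcl11a lines lay far below Trib1. The means were 902 ± 28.6 (SD, n = 4), 175 ± 8.87 and 283 ± 6.38, so TB13 stood at 19.4% and TB14 at 31.4% of the Trib1 level. The log2 change was -1.63 ± 0.039 (SE) in TB14 (limma adjusted p = 2.25e-17). In TB13 it was -2.29 ± 0.039 as deposited and -1.58 ± 0.037 after quantile scaling (limma adjusted p = 1.58e-19 and 3.18e-15). Of all probe sets, 0.315% in TB13 and 0.475% in TB14 had a log2 change at or below that of Ccl3 as deposited, and 0.79% and 0.338% after quantile scaling.

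Ccl4, the close relative that lies next to Ccl3, fell less. Its probe set (1421578_PM_at) read 261, 280.5, 243 and 239 in Trib1, 171, 171, 163 and 182 in TB13 and 169, 161, 185 and 169 in TB14. Each Bcl11a line lay below Trib1 without overlap, and the arrays of TB13 and TB14 overlapped each other. The log2 change in TB14 was -0.55 ± 0.054 (SE; limma adjusted p = 5.76e-08). In TB13 it was -0.54 ± 0.054 as deposited but 0.24 ± 0.056 after quantile scaling (limma adjusted p = 1.31e-08 and 0.00116), so the direction for Ccl4 in TB13 turned with the scaling.

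Ccl6 fell in both lines, by about a log2 unit in TB14 and by less in TB13. The probe set (1417266_PM_at) read 3265, 3240, 3371 and 3201 in Trib1, 1898, 1871, 1879 and 1869 in TB13 and 1533, 1570, 1595 and 1605 in TB14. No array of one line reached the range of another, in the order Trib1, TB13 and TB14. TB13 stood at 57.5% and TB14 at 48.2% of the Trib1 mean. The log2 change was -1.05 ± 0.019 (SE) in TB14 (limma adjusted p = 3.58e-19), and in TB13 -0.79 ± 0.019 as deposited and -0.66 ± 0.019 after quantile scaling (limma adjusted p = 1.07e-17 and 3.81e-14).

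Ccl9, the neighbour of Ccl6, stayed level. Its brighter probe set (1417936_PM_at) read 3374, 3410, 3443 and 3481 in Trib1, 3492, 3416, 3554 and 3471 in TB13 and 3297, 3370, 3377 and 3306 in TB14. Both Bcl11a lines overlapped Trib1. The log2 change was -0.038 ± 0.015 (SE) in TB14, a call close to the threshold (limma adjusted p = 0.041), which was lost when Trib1 replicate 2, 3 or 4 or TB14 replicate 1 or 4 was left out. The count of member probe sets lower in TB14 also went from 10 to 9 under median scaling and under calibration on the hybridization controls. It did so too without a filter and with variances without a trend. The deposited change of the brighter Ccl9 probe set in TB13 was 0.023 ± 0.015 (limma adjusted p = 0.144, not called). The other probe set (1448898_PM_at) read 1916 ± 36.2 (SD, n = 4) in Trib1, 1885 ± 61.4 in TB13 and 1927 ± 26.8 in TB14, and changed on the log2 scale by -0.024 ± 0.022 in TB13 and 0.0078 ± 0.022 in TB14 (SE; limma adjusted p = 0.297 and 0.807). After quantile scaling both TB13 values were called higher, by 0.060 and 0.16.

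A factor applied to a whole array cancels in the ratio of probe sets on it, so pairs of members were also compared within arrays. A difference that depends on intensity does not cancel, and the TB13 arrays had higher medians but lower upper quartiles. The TB13 ratios of probe sets of unlike brightness are therefore not free of it. The 3 pairs were chosen after the values were seen, so the ratios are a description with no test. The log2 ratio of Ccl6 to the brighter Ccl9 probe set was -0.068 ± 0.040 (SD, n = 4) on the Trib1 arrays, -0.89 ± 0.022 in TB13 and -1.08 ± 0.029 in TB14. The log2 ratio of Ccl3 to Ccl4 was 1.82 ± 0.10 in Trib1, 0.024 ± 0.11 in TB13 and 0.73 ± 0.11 in TB14. For both pairs, and with either Ccl9 probe set, no array of a Bcl11a line overlapped the Trib1 arrays. For Ccr1 over Ccr2 the direction turned with the probe sets taken. Of the 8 combinations of their probe sets, the mean ratio was lower than in Trib1 for 7 in TB13 and for 3 in TB14, with differences of -2.06 to 0.20 and of -0.27 to 0.71. Among the lower ones, 1 in each line overlapped the Trib1 arrays, at -0.0094 in TB13 and -0.14 in TB14. A ratio does not show that either gene of a pair held its level.

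Ccl2 was not measured above the array median on any array. Its probe set (1420380_PM_at) read 8.98 to 9.83 in Trib1, 10.1 to 14.6 in TB13 and 8.97 to 9.87 in TB14. It was not tested, and after quantile scaling the arrays of the lines overlapped.

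Among the receptors, Ccr1, the receptor for Ccl3, Ccl6 and Ccl9, fell in both lines on both of its probe sets. The brighter one (1419609_PM_at) read 1515, 1540, 1548 and 1544 in Trib1, 650, 670.4, 649 and 635 in TB13 and 803, 800.3, 817 and 802 in TB14. The dimmer one (1419610_PM_at) read 231 to 236 in Trib1, 29.4 to 39.2 in TB13 and 86.2 to 90.4 in TB14. As deposited, the lines did not overlap on either probe set and TB13 was lowest. After quantile scaling all TB14 arrays lay below TB13 on the brighter probe set, while TB13 stayed lowest on the dimmer. TB14 stood at 52.4% of the Trib1 mean on the brighter probe set and 37.7% on the dimmer, and TB13 at 42.4% and 14.2%, so the probe sets disagreed on the size, more so in TB13. The log2 changes in TB14 were -0.92 ± 0.023 and -1.29 ± 0.061 (SE; limma adjusted p = 3.8e-17 and 8.58e-13). In TB13 they were -1.22 ± 0.023 and -2.43 ± 0.061 as deposited (limma adjusted p = 4.36e-19 and 2.34e-17), and -0.79 and -2.32 after quantile scaling.

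Ccr2, the monocyte receptor for Ccl2, was read by 4 probe sets, and all 4 were lower in both lines. The brightest (1421186_PM_at) read 1372, 1382, 1354 and 1473 in Trib1, 718, 772, 744 and 659 in TB13 and 589.9, 574, 569 and 579 in TB14. The next (1421187_PM_at) had means of 753 ± 15.3 (SD, n = 4), 278 ± 21.5 and 343 ± 6.73 in the same order. The dimmer ones had means of 152 ± 3.67, 89.2 ± 5.11 and 64.7 ± 2.57 (1421188_PM_at) and of 159 ± 12.2, 67.9 ± 4.03 and 50.8 ± 1.98 (1460067_PM_at). On each of the 4, no array of either Bcl11a line overlapped Trib1. The 4 probe sets put TB14 at 31.9% to 45.6% of the Trib1 mean and TB13 at 36.9% to 58.6%.

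The log2 changes of Ccr2 in TB14 were -1.25 ± 0.038, -1.10 ± 0.044, -1.09 ± 0.051 and -1.44 ± 0.058 (SE) in that order, with limma adjusted p from 1.06e-15 to 6.47e-13. In TB13 they were -0.94, -1.40, -0.70 and -1.09 as deposited, with limma adjusted p from 4.34e-16 to 1.01e-10. After quantile scaling they were -0.51, -0.70, -0.090 and -0.62, and the third no longer passed (limma adjusted p = 0.142). Under calibration on the hybridization controls the 2 dimmer probe sets of Ccr2 read 0.40 and 0.039 in TB13, the opposite direction, while the 2 brighter ones read -0.39 and -0.58.

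**Figure D3:**
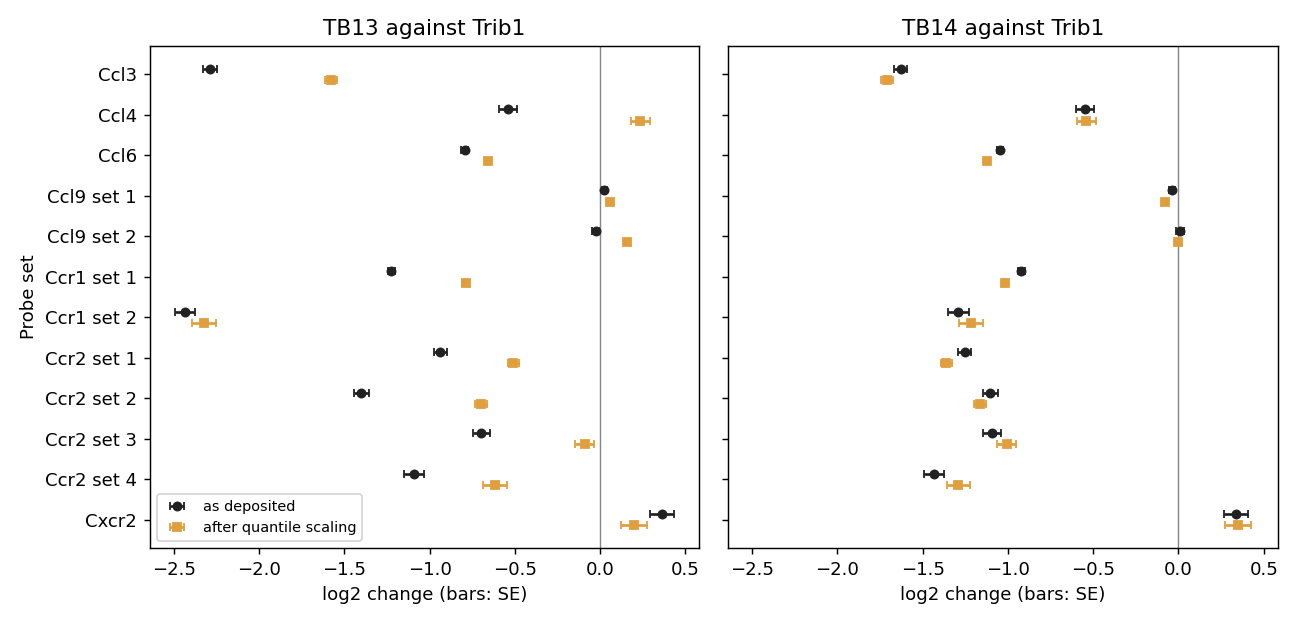
Log2 change against Trib1 (horizontal axis, points, with bars for the SE of the limma fit, 4 arrays per line) of the 12 member probe sets tested, numbered within a gene in the order of their IDs, for TB13 (left) and TB14 (right), as deposited (black circles) and with quantile scaling (orange squares). Both scalings nearly coincide in TB14, whereas in TB13 quantile scaling moves most points to the right and takes Ccl4 from -0.54 to 0.24.

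The neutrophil receptor Cxcr2 was dim and went the other way. Its probe set (1421734_PM_at) read 19.0, 16.0, 17.5 and 17.1 in Trib1, 21.3, 23.5, 32.1 and 28.1 in TB13 and 21.5, 27.7, 25.6 and 26.5 in TB14. It was below the array median on every Trib1 array and above it on 6 of the other 8, so it entered the test only through the lines where it was higher and had to differ. The log2 change was 0.34 ± 0.071 (SE) in TB14 and 0.36 ± 0.071 in TB13 (limma adjusted p = 0.000533 and 8.37e-05), and 0.51 in TB14 with a pseudocount of 1. After quantile scaling it was 0.20 in TB13 (limma adjusted p = 0.0215), and the arrays of TB13 and Trib1 then overlapped. Cx3cr1 failed the filter on both probe sets. One (1450019_PM_at) read 16.2 to 20.5 over all 12 arrays, with overlapping lines, and the other (1450020_PM_at) read 18.8 to 19.6 in Trib1, 23.4 to 34.6 in TB13 and 18.4 to 19.0 in TB14, near the array medians.

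TB13 and TB14 were also compared with each other. As deposited, 5 of the 12 probe sets were called lower in TB14 than in TB13 and 4 higher, against 26% and 65.2% of all probe sets tested. After quantile scaling 10 were lower and 1 higher, against 35.9% and 44.9%. Ccl6 and 3 of the 4 Ccr2 probe sets were lower in TB14 under both scalings, with deposited log2 changes of -0.25 for Ccl6 and of -0.31, -0.40 and -0.34 for Ccr2 (limma adjusted p from 1.28e-10 to 1.71e-05). Under median scaling 1 member probe set was lower and 8 were higher in TB14. The shares over all probe sets were not computed for median scaling, so these counts have no background beside them. Of the 4 just named, only the Ccr2 probe set 1421188_PM_at was then still called lower (-0.15), while Ccl6 read 0.037 and the other Ccr2 probe sets -0.029 and -0.10 (limma adjusted p = 0.0894, 0.501 and 0.0982). Ccl3 was higher in TB14 by 0.66 ± 0.039 (SE) as deposited but lower after quantile scaling, at -0.13 ± 0.037 (limma adjusted p = 3.51e-12 and 0.00394), so these arrays gave no stable order of the Bcl11a lines for Ccl3. The dimmer Ccr1 probe set was higher in TB14 by 1.14 as deposited and 1.11 after quantile scaling but read -0.097 under calibration on the hybridization controls, while the brighter one went from 0.30 to -0.23.

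Other genes of the chemokine system came from 6 lists, each gene by its brightest probe set. Their counts stand against the shares over all probe sets given above, 20% lower and 29.6% higher in TB14, 64.4% and 26% in TB13 as deposited, and 43.1% and 37% in TB13 after quantile scaling. Of 16 other CC chemokine genes 10 passed the filter, and most of those were dim, with means of 17.9 to 39.2 in Trib1 for all but Ccl5. In TB14 2 of the 10 were called lower and none higher, with a median log2 change of -0.047, although 8 did not pass. In TB13 9 were higher and none lower as deposited, and 7 and none after quantile scaling. Array medians were also higher in TB13, at 25.5 to 25.9 against 20.8 to 21.4 in the other lines. The shares above include bright probe sets. The part of this shift in the TB13 rises of dim genes, here and in the lists below, was not tested. One of the 10, Ccl27a, lay above the array median on the TB13 arrays alone and so entered the test only through the line where it was higher, and Ccl17 passed through 3 TB13 arrays and 1 Trib1 array. No member of this list other than Ccl5 was called in opposite directions in the 2 lines. Ccl5, a ligand of T cells and monocytes, read 209 ± 12.6 (SD, n = 4) in Trib1, 297 ± 12.7 in TB13 and 131 ± 4.56 in TB14, a rise of 0.48 and a change of -0.63 on the log2 scale (limma adjusted p = 1.3e-08 and 1.53e-09), with a rise of 1.203 in TB13 after quantile scaling. Ccl8, a monocyte attractant, rose in TB13 from 36.2 ± 2.16 to 80.2 ± 3.58 and read 34.6 ± 2.31 in TB14. Ccl27a read 17.9 ± 1.07, 32.4 ± 2.75 and 17.6 ± 1.73 in the order Trib1, TB13 and TB14.

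Of 17 CXC, CX3C and XC chemokine genes 7 passed the filter. In TB14 1 was higher and none lower, and in TB13 5 were higher and 1 lower as deposited and all 7 higher after quantile scaling. Cxcl9, among those called higher in TB13, lay above the array median on 3 TB13 arrays, 1 TB14 array and no Trib1 array. It therefore passed the filter without the Trib1 arrays. Pf4, platelet factor 4, rose in TB14 from 187 ± 5.14 (SD, n = 4) to 323 ± 5.57, a log2 change of 0.75, and in TB13 it changed by 0.070 as deposited, which was not called, and by 0.82 after quantile scaling. Cxcl16, a transmembrane chemokine, rose in TB13 from 73.4 ± 0.732 to 171 ± 8.69 and read 72.8 ± 2.62 in TB14. Its log2 change in TB13 was 1.09 as deposited and 1.73 after quantile scaling. Cxcl17 rose in TB13 from 34.5 to 63.7. The neutrophil ligands Cxcl1 and Cxcl2 failed the filter, with means of 10.2 to 15.2 in the 3 lines.

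Of 18 other chemokine receptor genes 5 passed the filter, and in TB14 3 fell and none rose. Cxcr5, known as the receptor that guides B cells to follicles, read 91.4 ± 12.96 (SD, n = 4) in Trib1, 19.2 ± 1.67 in TB13 and 12.9 ± 0.710 in TB14. It lay above the array median on the 4 Trib1 arrays alone, so it entered the test only through the line where it was higher and had to differ. Its fitted log2 changes, against values under the array median, were -1.70 ± 0.072 in TB13 and -2.02 ± 0.072 in TB14 (SE). Ccrl2, a non-signalling receptor that presents chemerin, went from 60.8 ± 5.99 to 33.5 ± 6.26 and 34.9 ± 1.08. Ccr6 was called higher in TB13 (log2 change 0.43) and lower in TB14 (-0.17), at means of 19.9 to 36.7, and Ccr10 rose in TB13 by 0.51. Of the other chemoattractant receptor genes 6 of 10 passed, and in TB14 4 fell and 1 rose, against 2 falls and 3 rises in TB13. Ltb4r1, the leukotriene B4 receptor, fell in both lines, with log2 changes of -1.09 in TB13 as deposited, -0.32 there after quantile scaling, and -0.35 in TB14. Ptger4, a prostaglandin E receptor, fell in TB13, with a change of -1.01 as deposited and -0.24 under quantile scaling. The formyl peptide receptor gene Fpr2 read 20.1, 38.5 and 25.8 in Trib1, TB13 and TB14, and since it lay above the array median on no Trib1 array it entered the test only through the lines where it was higher. C5ar1, the receptor for complement C5a, and Hcar2 were called higher in TB13 as deposited, with log2 changes of 0.13 and 0.17, and lower in TB14, with -0.36 and -0.33. After quantile scaling the TB13 changes were 0.023, which was not called (limma adjusted p = 0.764), and 0.32.

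Signalling genes downstream of chemokine receptors changed in both directions in TB14. Of 30 such genes 27 passed the filter, and in TB14 15 fell and 8 rose, with a median log2 change of -0.12. In TB13 26 fell and none rose as deposited, and 18 fell and 3 rose after quantile scaling, with medians of -0.79 and -0.22 beside -0.39 and -0.030 over all probe sets. Pik3r5, the regulatory subunit of the G protein-activated PI3 kinase, changed by -1.51 in TB13 and -1.03 in TB14, Arrb1, beta-arrestin, by -1.60 and -0.51, and Rgs2, which shortens G protein signals, by -1.72 and -0.63, with -0.97 for Rgs2 in TB13 after quantile scaling. The phospholipase gene Plcb2 and the G protein regulator Rgs1 were lower in TB13 under both scalings, with log2 changes of -0.72 and -1.23 as deposited and -0.77 and -0.66 after quantile scaling, and higher in TB14, with 0.30 and 0.16. Gnb2, a G protein beta subunit, and the small GTPase gene Cdc42 did the same, with -0.63 and -0.26 in TB13 as deposited, -0.17 and -0.079 there after quantile scaling, and 0.18 and 0.087 in TB14. Gnai3, Gnb1 and Elmo1 were lower in TB13 as deposited, with changes of -0.17, -0.40 and -0.19, and turned to 0.29, 0.050 and 0.58 after quantile scaling, while in TB14 they rose by 0.46, 0.11 and 0.31.

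Of 14 genes for NF-kB factors and their inhibitors, which are known regulators of inflammatory chemokine genes, 10 passed the filter, and in TB14 6 fell and none rose, with a median of -0.14. In TB13 7 fell and none rose as deposited, and 6 fell and 2 rose after quantile scaling, the first near the 64.4% of all probe sets that were lower. Nfkbia, which encodes the inhibitor IkappaB-alpha and is itself induced by NF-kB, read 421 ± 10.7 (SD, n = 4) in Trib1, 183 ± 6.52 in TB13 and 331 ± 15.0 in TB14, with TB13 changes of -1.15 as deposited and -0.38 after quantile scaling. The kinase gene Ikbkb changed by -1.18 and -0.41 in TB13 on these scales and by -0.13 in TB14. Nfkbie changed by -1.14 in TB13 as deposited, while in TB14 its change of -0.041 failed the test (limma adjusted p = 0.663).

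**Figure D4:**
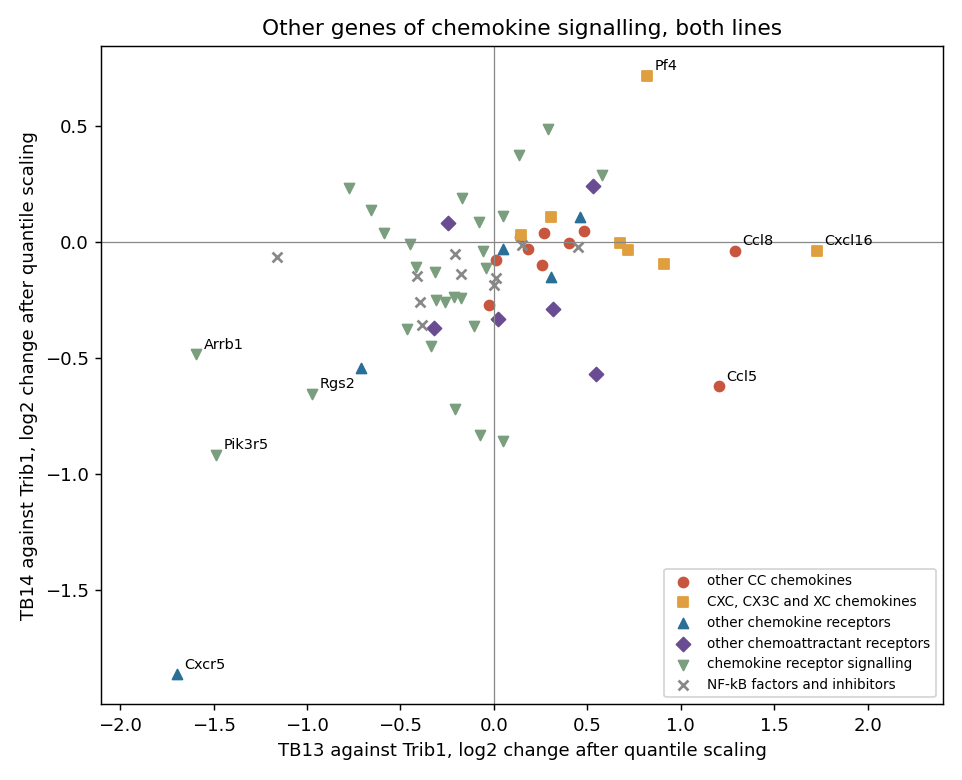
Log2 change against Trib1 after quantile scaling in TB13 (horizontal axis) and TB14 (vertical axis) of the tested genes of the 6 other lists, 1 point per gene with its list given by colour and shape. Both axes share the 4 Trib1 arrays. Cxcr5, Pik3r5, Arrb1 and Rgs2 lie low on both axes, while Ccl8, Cxcl16 and Ccl5 lie to the right.

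Genes whose pattern was most like that of 2 members were listed by Pearson correlation over the 12 arrays, as a description. The 12 arrays fall into 3 lines of 4 and share the line means, and 472 genes correlated with Ccl3 above 0.95. The closest to Ccl3 was F10, coagulation factor X, with r = 0.9997 and means of 661 in Trib1, 161 in TB13 and 247 in TB14, followed by Hsd17b10, a mitochondrial dehydrogenase (r = 0.9983), and Fgd4, an exchange factor for Cdc42 (r = 0.9982). The closest to the brightest Ccr2 probe set were Ier3, an immediate early gene (r = 0.9976, with means of 2707, 1276 and 951), the actin-binding gene Avil (r = 0.9967) and Gimap1, a GTPase gene of the immune system (r = 0.9956). After quantile scaling F10 remained among the closest 3 of Ccl3 and Gimap1 among those of Ccr2.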

How the data were processed

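RNA of 12 samples, 4 per line, was measured on oligonucleotide arrays. The deposited intensities are on a linear scale. Per the submitters' processing notes the authors used MAS5, and neither its version nor its scaling target is given in the sources used here. The files held 0 columns of other samples. Of 45141 probe sets 104 were controls, and of the others 28898 had 1 gene in the platform annotation, 551 several and 15588 none.

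The members and lists were chosen with earlier results of these data known. Models were fitted with limma 3.58.1 in R 4.3.3 on log2(intensity + 12.7), the added constant being the 25th percentile of all intensities, in 1 model of 12 arrays and 3 groups with moderated variances and a trend on mean expression. The fit ran on probe sets, not on 1 per gene, to cover every probe set of a member. Calibration fitted a quadratic curve through the 18 hybridization controls of each array. The fit was tested on simulated data. Alternatives were 3 other scalings, 2 other filters and pseudocounts, variances without a trend, the replicate block, 1 probe set per gene, a 2-fold threshold, line means and each array left out. Genes named beside the members were the 3 called ones of each list with the largest change and those called in opposite directions. Exceptions named after their values were seen were Cxcl1, Cxcl2 and the marker genes. Of the genes for which similar patterns were to be listed, Cxcr4 had no named probe set. Other markers, of T, B, erythroid, mast and stromal cells, are in the closing section. Same-numbered arrays of different lines were correlated to check for pairing. Figures used matplotlib 3.10.9. Arrays have no read depth, so their number limits the precision.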

Additional observations from a re-analysis of the deposited data

Results flagged for a closer look

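Values of 45 groups of 4 arrays were screened for an array far from the others of its line, and 2 stood out, where chance gives about 1 in 20. Ccl2 read 9.87 on TB14 replicate 2, higher than the other 3 but below the array median. The Ccr2 probe set 1421187_PM_at read 246 on TB13 replicate 4 against 285 to 292 on the other 3, and without that array its TB13 change was -1.34, within the range of -1.42 to -1.34 over all arrays left out in turn.

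The changes in the 2 Bcl11a lines differed by a test of TB14 minus TB13 (limma, adjusted p under 0.05) for 9 of the 12 member probe sets as deposited. Calls were common in this contrast, with 26% of all probe sets tested lower and 65.2% higher, so the count does not set the members apart. The log2 differences were 0.66 for Ccl3, -0.25 for Ccl6, -0.061 for the brighter Ccl9 probe set, 0.30 and 1.14 for the Ccr1 probe sets and -0.31, 0.29, -0.40 and -0.34 for the 4 Ccr2 probe sets. Ccl3, the brighter Ccr1 probe set and the Ccr2 probe set at 0.29 turned sign after quantile scaling, and the TB13 arrays also differed in their hybridization controls.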

How the results depend on the processing

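Against Trib1, falls of Ccl3, Ccl6 and Ccr1 and of the 2 brighter Ccr2 probe sets kept their direction and call in both lines under every scaling, filter, pseudocount, variance model and left-out array tried. In TB14 9 to 10 member probe sets were lower with each array left out in turn. The replicate number shared between lines did not pair the arrays, since same-numbered arrays correlated at -0.0953 to 0.133 and 1 of 12 pairs passed 0.1. With the replicate block 10 were lower in TB14 and 9 in TB13, and no count changed.

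Fewer probe sets remained with 1 per gene, which gave 5 lower in TB13, 6 in TB14, 5 over both lines, and 3 lower and 2 higher in TB14 against TB13. The 2-fold threshold gave 5 lower in TB13 and 0 higher in either line or over both, and 0 lower and 1 higher in TB14 against TB13, where 5 lower ones had a limma p under 0.05 before adjustment. The single higher probe set, Cxcr2, was lost with the stricter filter (0 higher in TB13, TB14 and over both), while without a filter 3 were higher in TB13 and 2 over both, since dim probe sets entered. Higher counts became 4 in TB13 and 2 over both under quantile scaling, and also 4 and 2 under calibration on the controls. Line means left 0 lower and 0 higher over both lines (limma, 2 lower with an unadjusted p under 0.05). In TB14 against TB13, quantile scaling gave 10 lower and 1 higher, calibration 10 lower and 0 higher (limma, also 0 before adjustment), and median scaling 1 lower and 8 higher. Shares over all probe sets were not computed under calibration or median scaling, so counts under these 2 have no background beside them.

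Signs turned as follows. Under quantile scaling the log2 change in TB13 was 0.24 for Ccl4 and 0.16 for the dimmer Ccl9 probe set, in TB14 it was -0.0011 for that probe set, and TB14 minus TB13 was -0.13 for Ccl3, -0.23 for the brighter Ccr1 and -0.46 for Ccr2 1421187_PM_at. Under calibration the TB13 changes were 0.46 for Ccl4, -0.0018 and 0.24 for Ccl9, and 0.40 and 0.039 for the dimmer Ccr2 probe sets, and TB14 minus TB13 was -0.32 for Ccl3, -0.32 and -0.097 for Ccr1 and -0.59 for Ccr2 1421187_PM_at. Median scaling gave -0.24 for the brighter Ccl9 in TB13, and 0.037 for Ccl6 and 0.23 for that Ccl9 in TB14 minus TB13. With arrays left out in turn, the dimmer Ccl9 ranged from -0.0031 to 0.019 in TB14, with the negative value without Trib1 replicate 4. The cause of these turns was not tested.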

Other observations

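Markers of other cell types were summed over their named probe sets on each array, as deposited. T cell markers, 6 genes, summed to 219 to 229 in Trib1, 249 to 296 in TB13 and 154 to 159 in TB14, B cell markers, 4 genes, to 90.5 to 94.4, 123 to 139 and 86.4 to 93.9, and stromal and endothelial markers, 6 genes, to 874 to 924, 347 to 411 and 680 to 721, most of it Pecam1, which leukocytes also express. Erythroid markers, 3 genes, summed to 916 to 967 in Trib1, 1602 to 1733 in TB13 and 1533 to 1561 in TB14. Mast cell and basophil markers, 5 genes, summed to 8204 to 8297, 6971 to 7233 and 8157 to 8280. Cpa3, a mast cell carboxypeptidase, had means of 5973, 6153 and 6127 in the same order of lines, and Mcpt8, a basophil protease, of 1759, 655 and 1929. None of these markers was at 0, and their part in the chemokine results was not tested.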
